A study of Mus musculus with 12 samples.

Results

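The interaction of lipopolysaccharide (LPS) and an antibody against CD36 was measured by RNA sequencing of 12 libraries from RAW264.7, a transformed mouse line with the features of macrophages. For each gene it is the change that LPS made in the presence of the antibody minus the change that LPS made in its absence, on log2 values. A value of 0 means that the effects of the 2 agents added up on that scale. A positive value means that the antibody raised a gene more, or lowered it less, with LPS than without it, and a negative value means the reverse. Genes were taken if they reached 1 FPKM (fragments scaled by the length of the gene model and by the depth of the library) in at least 3 of the 12 libraries, and Il6 was left out. This gave 10276 genes of the 31801 entries in the deposited table. At the edge of that filter, the third-highest value was 1.00 FPKM for Invs and Cep170b, which entered, and 0.999 FPKM for Neu3 and 0.998 FPKM for 1700001G11Rik, which did not.

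All cells carried the wild-type genotype of the line. They fell into 4 groups of 3 libraries: cells given LPS at 50 ng/ml together with the anti-CD36 antibody at a dilution of 1 in 100 (LPS+anti-CD36), cells given LPS at 50 ng/ml (LPS), cells given the antibody at 1 in 100 (anti-CD36), and untreated cells. The labels name no control antibody and no treatment time. Nothing in them tells whether replicates were grown as separate cultures, so the p-values reflect the spread between these libraries and no more. All groups are of 1 line, so they hold no spread between animals.

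LPS is a component of the outer membrane of Gram-negative bacteria. Macrophages sense it through CD14 and the receptor complex of TLR4, whose signalling through NF-kB and MAP kinases induces cytokines, chemokines and nitric oxide synthase within hours. The same stimulus is known to raise glycolysis and the activity of the hypoxia-inducible factor HIF-1, a transcription factor that is held down by prolyl hydroxylases and the ubiquitin ligase subunit VHL. CD36 is a surface scavenger receptor that binds oxidised lipoproteins and takes up long-chain fatty acids.

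Library depth, recovered from the steps of the FPKM values, ran from 30070450 to 54137810 fragments. The 20 macrophage identity genes summed to 5200 to 5630 FPKM in LPS+anti-CD36 libraries, 4570 to 5850 in LPS libraries, 4920 to 5350 in anti-CD36 libraries and 3930 to 5140 in untreated libraries, with lysozyme (Lyz2) the highest at up to 4450 FPKM. None of the 8 fibroblast, 8 epithelial or 9 neutrophil markers reached 1 FPKM in any library, and the epithelial markers were all at 0. Among T and NK cell markers 1 gene reached 1 FPKM (Lck, up to 7.77) and among B cell markers 1 gene did (Ighm, up to 70.2). These are bulk libraries, in which fewer cells of a kind and less RNA per cell cannot be told apart. In all 6 libraries without LPS the values listed for Il6 were those of the entry Gm10874, so no interaction can be had for this cytokine. Il6 stood at 20.1, 18.9 and 20.6 FPKM in LPS+anti-CD36 libraries, against 3.77, 4.23 and 3.89 FPKM in LPS libraries. These values come from the same entry and are given as deposited, and whether they are sound was not tested.

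The interaction was called for 132 of the 10276 genes (limma, Benjamini-Hochberg adjusted p under 0.05). It was positive for 51 genes, 0.496% of those tested, and negative for 81, 0.788% of those tested. The median over all genes was 0.01 on the log2 scale, and 884 genes had an unadjusted p under 0.05. Genes with a negative interaction included targets of the hypoxia-inducible factor such as Ndrg1, Bnip3 and Adm, genes of glucose use such as Slc2a1, and immediate early factors such as Egr1. Those with a positive interaction included the cytokines Csf2, Il1a and Il1b and the effectors Lcn2 and Timp1. These were near 0 without LPS and stood higher with both agents than with LPS alone. None of these cytokines and effectors was called in a fit to fragment counts recovered from the FPKM values. The positive genes Akap12 and Nr4a1 were called in that fit, which used the same filtered genes. Akap12 had passed the filter only through libraries with both agents, where it was high.

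Which genes were called depended on the scale for the positive group and much less for the negative group. With 0.1 FPKM added before the logarithm in place of 1, 19 genes were positive (0.185% of those tested) and 69 negative (0.671%). With 4 FPKM added, 70 were positive (0.681%) and 81 negative (0.788%). Across the 6 values added (0.1, 0.25, 0.5, 1, 2 and 4 FPKM), 62 of the 81 negative genes and 18 of the 51 positive genes were called every time, and no gene was called positive at one and negative at another. Scaling the values to TPM left 27 positive and 77 negative genes. A fit to the recovered fragment counts, with voom weights, left 5 positive and 67 negative genes. Leaving out 1 library at a time gave 77 to 161 genes in all. The total was 81, 78 and 81 genes without LPS+anti-CD36 replicate 1, 2 and 3, 80 without LPS replicate 2, 77 without anti-CD36 replicate 3 and 83 without untreated replicate 2. In every one of these 12 fits 26 of the 51 positive and 44 of the 81 negative genes were called.

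**Figure D1:**
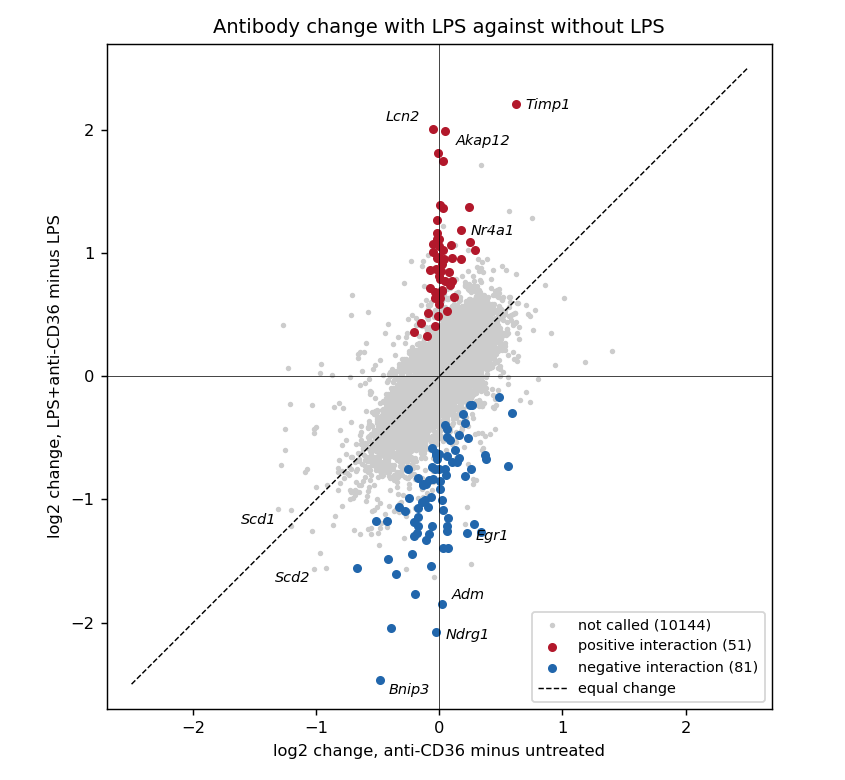
Change made by the antibody with LPS (vertical axis, LPS+anti-CD36 minus LPS, log2) against the change it made without LPS (horizontal axis, anti-CD36 minus untreated, log2) for the 10276 genes tested. Each point is 1 gene, the dashed line marks equal changes, and the 51 positive (red) and 81 negative (blue) genes lie above and under it, most of them close to 0 on the horizontal axis.

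The pairwise comparisons are built from the same 12 libraries as the interaction, so their calls describe the genes and add no separate evidence. With LPS present, the antibody raised 754 genes (7.34% of those tested) and lowered 836 (8.14%), and all 51 positive genes were among the raised ones and 78 of the 81 negative genes among the lowered ones. Without LPS it raised 15 genes (0.146%) and lowered 20 (0.195%), of which 0 were positive and 2 negative in the interaction. LPS alone raised 1710 genes (16.6%) and lowered 3403 (33.1%). Of the 51 positive genes it raised 46 and lowered 2, and of the 81 negative genes it raised 52 and lowered 8. In the presence of the antibody LPS raised 1670 genes (16.3%) and lowered 3212 (31.3%), including 50 raised and 1 lowered among the positive genes, and 26 raised and 44 lowered among the negative genes.

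The list of the hypoxia-inducible factor pathway held more called genes than any other list examined, though the lists differed in size. Of the 33 tested members of this list of machinery and targets, 15 were called negative, beside 0.788% of all genes tested. Positive calls numbered 0, beside 0.496% of all genes tested, and 29 of the members lay under 0. Their median interaction was -0.73, beside 0.01 over all genes tested. Of the 15, 14 were called at all 6 values added before the logarithm. By share, the list of inflammatory cytokines came close, with 8 of 19 tested members called, all of them positive.

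Ndrg1, a stress-responsive gene of the N-myc downregulated family, had 4.77, 4.86 and 4.26 FPKM in LPS+anti-CD36 cells, against 24.7, 22.7 and 20.8 FPKM in LPS cells, 13.2, 15.2 and 15.3 FPKM in anti-CD36 cells and 14.3, 15.6 and 14.5 FPKM in untreated cells. The 3 libraries with both agents were the lowest and the 3 with LPS alone the highest, with no overlap with either group without LPS, while anti-CD36 and untreated libraries overlapped. Its interaction was -2.05 ± 0.12 (log2, standard error; adjusted p = 1.1e-05). Bnip3, a receptor for the removal of mitochondria by autophagy, had 11.9, 15.8 and 16.8 FPKM in LPS+anti-CD36 cells, against 80.6, 87.0 and 88.6 FPKM in LPS cells, 48.1, 51.9 and 50.1 FPKM in anti-CD36 cells and 72.3, 72.4 and 66.5 FPKM in untreated cells. No 2 groups overlapped, and the antibody change was -2.46 with LPS and -0.48 without it (adjusted p = 2.6e-07 and 0.1). The interaction of Bnip3 was -1.98 ± 0.16 (adjusted p = 0.000135). Its relative Bnip3l, which serves the same process, averaged 8.76 ± 0.67 FPKM with both agents and 28.9 ± 4.3 with LPS, against 24.9 ± 2.2 with the antibody and 32.1 ± 2.8 untreated (SD, n = 3 each), an interaction of -1.25.

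Of the oxygen-sensing side of the pathway, Egln1, Egln3 and Vhl were called, while Egln2 and Hif1an were not. The interaction was 0.09 ± 0.19 for Egln2 and 0.02 ± 0.10 for Hif1an (log2, standard error). Egln1, the main prolyl hydroxylase that marks HIF for destruction, had 6.16, 5.87 and 5.31 FPKM in LPS+anti-CD36 cells, against 18.5, 15.3 and 14.6 FPKM in LPS cells, 14.0, 13.3 and 14.3 FPKM in anti-CD36 cells and 16.4, 15.7 and 13.1 FPKM in untreated cells. Libraries with both agents lay under all others, and untreated libraries overlapped with both of the other groups. Egln3, another hydroxylase and itself a HIF target, had 0.408, 0.224 and 0.332 FPKM with both agents, against 1.55, 1.56 and 1.69 FPKM with LPS, 0.890, 0.848 and 0.863 FPKM with the antibody and 0.888, 1.04 and 0.936 FPKM untreated. LPS libraries were the highest and those with both agents the lowest, without overlap. Egln3 reached the 1 FPKM of the filter only in the LPS libraries, where it was high, and in untreated replicate 2. Its place among the genes tested thus rests on the LPS group. The interactions were -1.22 for Egln1 and -0.91 for Egln3 (adjusted p = 0.00134 and 0.00107). Vhl, the substrate-binding subunit of the ligase, averaged 9.78 ± 0.78 FPKM with both agents and 15.6 ± 0.46 with LPS, against 10.9 ± 0.65 with the antibody and 10.9 ± 0.78 untreated (SD, n = 3 each), an interaction of -0.62, called in 7 of 12 fits that left out 1 library. The transcript of Hif1a, the regulated subunit of the factor, had an interaction of 0.00 with a 95% confidence interval of -0.52 to 0.53. Its antibody change was -0.58 both with and without LPS, with adjusted p = 0.0412 and 0.148.

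Among the secreted products, Adm, the precursor of the vasodilator peptide adrenomedullin, had 2.97, 2.88 and 2.58 FPKM in LPS+anti-CD36 cells, against 12.5, 11.5 and 14.3 FPKM in LPS cells, 4.96, 7.09 and 6.25 FPKM in anti-CD36 cells and 4.68, 6.47 and 6.82 FPKM in untreated cells. Libraries with both agents lay under every other library, and LPS libraries above every other. The interaction of Adm was -1.87 ± 0.20 (adjusted p = 0.000512). Vegfa, the main blood vessel growth factor, averaged 14.3 ± 0.88 FPKM with both agents and 31.0 ± 1.1 with LPS, against 9.48 ± 1.2 with the antibody and 12.1 ± 0.51 untreated (SD, n = 3 each). It was induced by LPS either way, by 0.55 with the antibody and 1.29 without it (log2), and its interaction was -0.74.

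The transcriptional repressors Bhlhe40, Bhlhe41 and Mxi1, all known HIF targets, had interactions of -1.12, -1.20 and -0.76. Bhlhe40, which also acts in the circadian clock, stood at 2.57 to 3.08 FPKM with both agents, against 6.35 to 8.01 with LPS, 7.93 to 7.97 with the antibody and 6.99 to 8.71 untreated. Its 3 other groups overlapped and only libraries with both agents were lower. Other called members were the stress-induced mTORC1 inhibitor Ddit4 (-1.04, called in 4 of the 12 fits that left out 1 library), the mitochondrial adenylate kinase Ak4 (-0.89), the glucose transporter Slc2a1 (-0.91) and Ankrd37 (-1.02). Among members that were not called, Ero1a, an oxidase of protein folding, had an interaction of -1.29 ± 0.28 (adjusted p = 0.0516). Stc2, a secreted glycoprotein, had -0.67 ± 0.15 (adjusted p = 0.0539). These lay closest to the threshold, and others were nearer 0, such as Kdm3a (-0.47), Anxa2 (-0.24) and Car9 (-0.03). Ero1a spread widely within groups, with 114, 157 and 183 FPKM in the 3 LPS libraries.

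**Figure D2:**
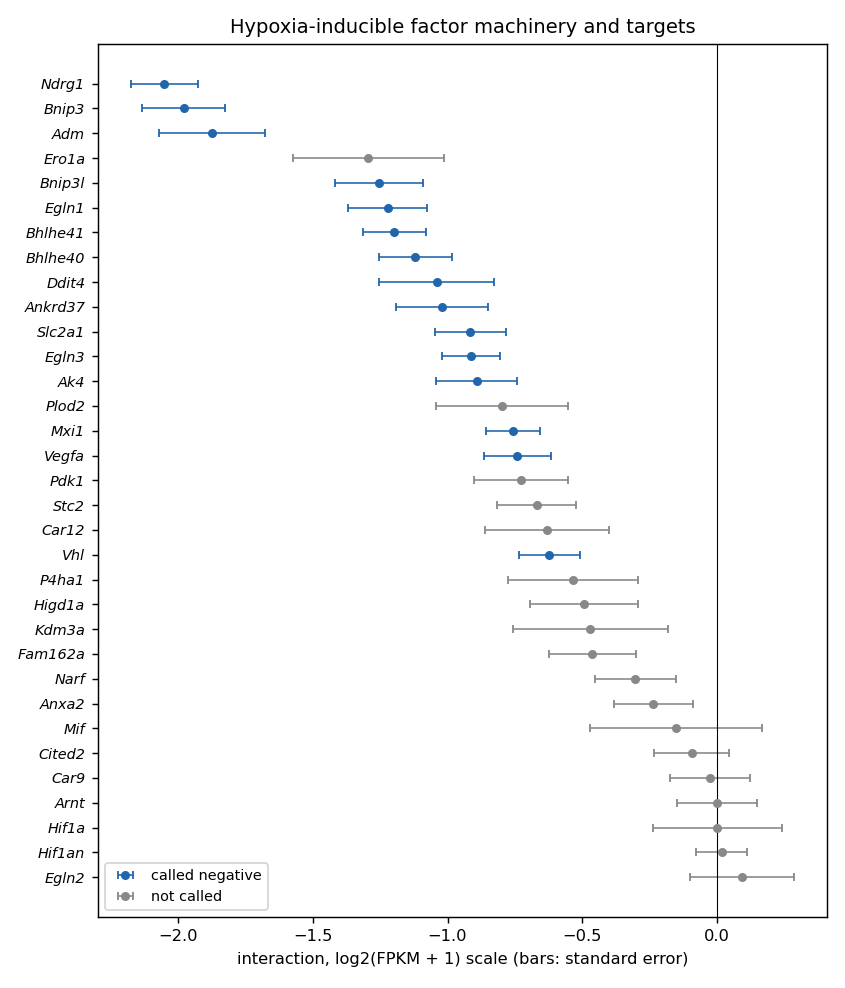
Interaction (horizontal axis, log2 scale with 1 FPKM added) of the 33 tested genes of the hypoxia-inducible factor list, 1 row per gene, ordered by value, with bars for the standard error of the fit. The 15 called genes (blue) run from -2.05 for Ndrg1 to -0.62 for Vhl, and Hif1a, Arnt and Egln2 sit near 0.

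The promoters of 4 of the called genes are shown, picked because their sequences hold the core of the hypoxia response element, ACGTG, to which HIF is known to bind. They are RefSeq sequences of build GRCm38.p6, from 250 bases before to 50 bases after the start of the gene, written 5′ to 3′ on the strand of the gene, with matches on either strand in capitals. Bnip3 lies at chr7:138909457-138909756, minus strand, Egln3 at chr12:54203825-54204124, minus strand, Egln1 at chr8:124949205-124949504, minus strand and Slc2a1 at chr4:119108495-119108794, plus strand.
Bnip3: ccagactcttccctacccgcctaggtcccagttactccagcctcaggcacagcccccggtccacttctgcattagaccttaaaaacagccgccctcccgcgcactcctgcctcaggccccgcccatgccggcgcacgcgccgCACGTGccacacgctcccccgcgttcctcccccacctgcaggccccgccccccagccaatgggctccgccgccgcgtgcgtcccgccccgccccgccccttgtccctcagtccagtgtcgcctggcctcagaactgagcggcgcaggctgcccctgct
Egln3: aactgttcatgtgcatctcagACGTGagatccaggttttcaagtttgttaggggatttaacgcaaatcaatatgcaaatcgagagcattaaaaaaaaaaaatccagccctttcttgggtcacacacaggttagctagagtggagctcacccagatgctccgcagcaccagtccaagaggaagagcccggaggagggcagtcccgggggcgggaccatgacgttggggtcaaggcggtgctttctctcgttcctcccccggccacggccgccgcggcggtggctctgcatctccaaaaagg
Egln1: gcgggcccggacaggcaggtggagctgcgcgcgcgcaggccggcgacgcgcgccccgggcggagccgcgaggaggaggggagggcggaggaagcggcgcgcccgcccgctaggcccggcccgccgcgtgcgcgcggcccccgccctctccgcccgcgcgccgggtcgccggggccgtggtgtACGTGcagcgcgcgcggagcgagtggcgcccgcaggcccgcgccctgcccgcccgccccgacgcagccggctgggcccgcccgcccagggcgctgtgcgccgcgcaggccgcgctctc
Slc2a1: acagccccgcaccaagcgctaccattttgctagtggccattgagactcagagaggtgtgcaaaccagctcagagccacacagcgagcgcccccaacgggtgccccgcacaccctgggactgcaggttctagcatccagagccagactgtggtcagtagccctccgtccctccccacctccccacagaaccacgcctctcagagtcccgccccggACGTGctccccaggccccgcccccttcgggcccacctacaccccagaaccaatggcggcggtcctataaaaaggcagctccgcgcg
In Bnip3 the 2 matches lie on opposite strands and overlap in the palindrome CACGTG, which is also the E-box read by many other factors. Each of the other three promoters holds 1 match. Of the 15 called members, 12 had a promoter in the RefSeq table and 7 of those (58.3%) held the core. Adm, Vegfa, Mxi1, Ak4 and Vhl held no match and were called negative too. The core was present in 24 of 61 promoters of negative genes (39.3%), the 7 included, and in 12 of 41 of positive genes (29.3%). Its share was 2206 of 8042 among all genes tested (27.4%) and 5315 of 27025 in the table (19.7%). The list was drawn up from HIF machinery and targets, so its share says nothing about the interaction. Promoters of its members that were not called were not counted. A match describes the letters only and is no evidence of binding.

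Fewer genes of glucose handling were called. Of 25 tested genes of glycolysis and glucose transport, 4 were called negative and 0 positive, beside 0.788% and 0.496% of all genes tested. In this list 22 lay under 0, and the median was -0.37, beside 0.01 over all genes tested. Slc2a1, the main glucose transporter of activated macrophages, had 80.5, 80.9 and 77.5 FPKM in LPS+anti-CD36 cells, against 172, 147 and 135 FPKM in LPS cells, 47.0, 47.1 and 49.2 FPKM in anti-CD36 cells and 47.6, 51.5 and 44.3 FPKM in untreated cells. LPS raised it in both settings, by 0.72 with the antibody and 1.64 without it, and anti-CD36 and untreated libraries overlapped. Its interaction was -0.91 ± 0.13 (adjusted p = 0.00424).

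Pfkl, the liver-type phosphofructokinase of the committed step of glycolysis, averaged 13.7 ± 0.36 FPKM with both agents and 28.5 ± 4.9 with LPS, against 25.2 ± 0.89 with the antibody and 30.0 ± 0.92 untreated (SD, n = 3 each), an interaction of -0.74 (adjusted p = 0.0307). Eno2, a neuronal-type enolase, and Pfkfb3, which makes the activator fructose 2,6-bisphosphate, had interactions of -1.09 and -0.75 (adjusted p = 0.0334 and 0.0447). These 3 calls were close to the threshold. That of Pfkl was lost in 10 of 12 fits that left out 1 library, all but those without LPS replicate 1 and without LPS replicate 3. That of Eno2 was lost in 8, all but those without LPS+anti-CD36 replicate 3, LPS replicate 1, anti-CD36 replicate 1 and untreated replicate 3. That of Pfkfb3 was lost in 9, all but those without LPS replicate 1, anti-CD36 replicate 1 and untreated replicate 3.

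Pgm1, Gys1 and Gbe1 belong to no list and were picked after their values were seen, so they are given as single genes. Pgm1, a phosphoglucomutase that links glucose 6-phosphate to glycogen, had 20.5, 19.0 and 19.8 FPKM in LPS+anti-CD36 cells, against 50.9, 49.7 and 47.4 FPKM in LPS cells, 26.7, 32.4 and 33.7 FPKM in anti-CD36 cells and 35.7, 35.3 and 34.3 FPKM in untreated cells. No 2 groups overlapped, with LPS highest and both agents lowest, and the interaction was -1.09 ± 0.12 (adjusted p = 0.000851). Gys1, the muscle-type glycogen synthase, averaged 12.0 FPKM with both agents and 28.7 with LPS, against 10.7 with the antibody and 12.5 untreated, an interaction of -0.98 (adjusted p = 0.00309). Gbe1, the glycogen branching enzyme, averaged 2.97 FPKM with both agents and 7.38 with LPS, against 5.14 with the antibody and 5.92 untreated, an interaction of -0.90 (adjusted p = 0.0142), and its call was lost in 3 of the 12 fits that left out 1 library.

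For 21 of the 10276 genes tested the change made by LPS was called in opposite directions with and without the antibody. Of these, 16 were among the 132 with a called interaction. Opposite changes are themselves a difference between the 2 settings, so they describe these genes and add no separate evidence. In 15 of the 16 LPS lowered the gene with the antibody and raised it without. Among the 15 were Ndrg1, Mgarp, Ciart, Bhlhe41, Adm, Pgm1, Egln3, Ccng2, Zfp36l1, Grhpr, Pnrc1, Kdm4b, Jmjd6 and Echdc3. In the other, the tubulin gene Tubb2a, LPS raised it with the antibody (0.27) and lowered it without (-0.39). Mgarp, a mitochondrial protein, had 0.394, 0.408 and 0.587 FPKM with both agents, against 4.49, 3.95 and 3.56 FPKM with LPS, 1.95, 2.15 and 2.02 FPKM with the antibody and 2.61, 2.69 and 2.17 FPKM untreated. No 2 groups overlapped, with LPS highest and both agents lowest. LPS changed it by -1.06 with the antibody and by 0.52 without it (adjusted p = 2.4e-06 and 0.000709), an interaction of -1.57. Ciart, a repressor of the circadian clock, had 2.46, 2.55 and 2.60 FPKM with both agents, against 10.3, 8.39 and 9.15 FPKM with LPS, 4.58, 5.56 and 4.34 FPKM with the antibody and 5.38, 5.03 and 4.81 FPKM untreated. Its interaction was -1.47, and anti-CD36 and untreated libraries overlapped. Ccng2, an unconventional cyclin, changed with LPS by -0.48 with the antibody and by 1.18 without it, an interaction of -1.66. The histone demethylase Kdm4b (-0.82) and the dioxygenase Jmjd6 (-0.78) were in the same set, with LPS changes of -0.52 and -0.51 with the antibody and 0.30 and 0.27 without it. The interaction of Tubb2a was lost in 10 of the 12 fits that left out 1 library, that of Echdc3 in 6, those of Kdm4b and Jmjd6 in 2 each and that of Pnrc1 in 1.

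**Figure D3:**
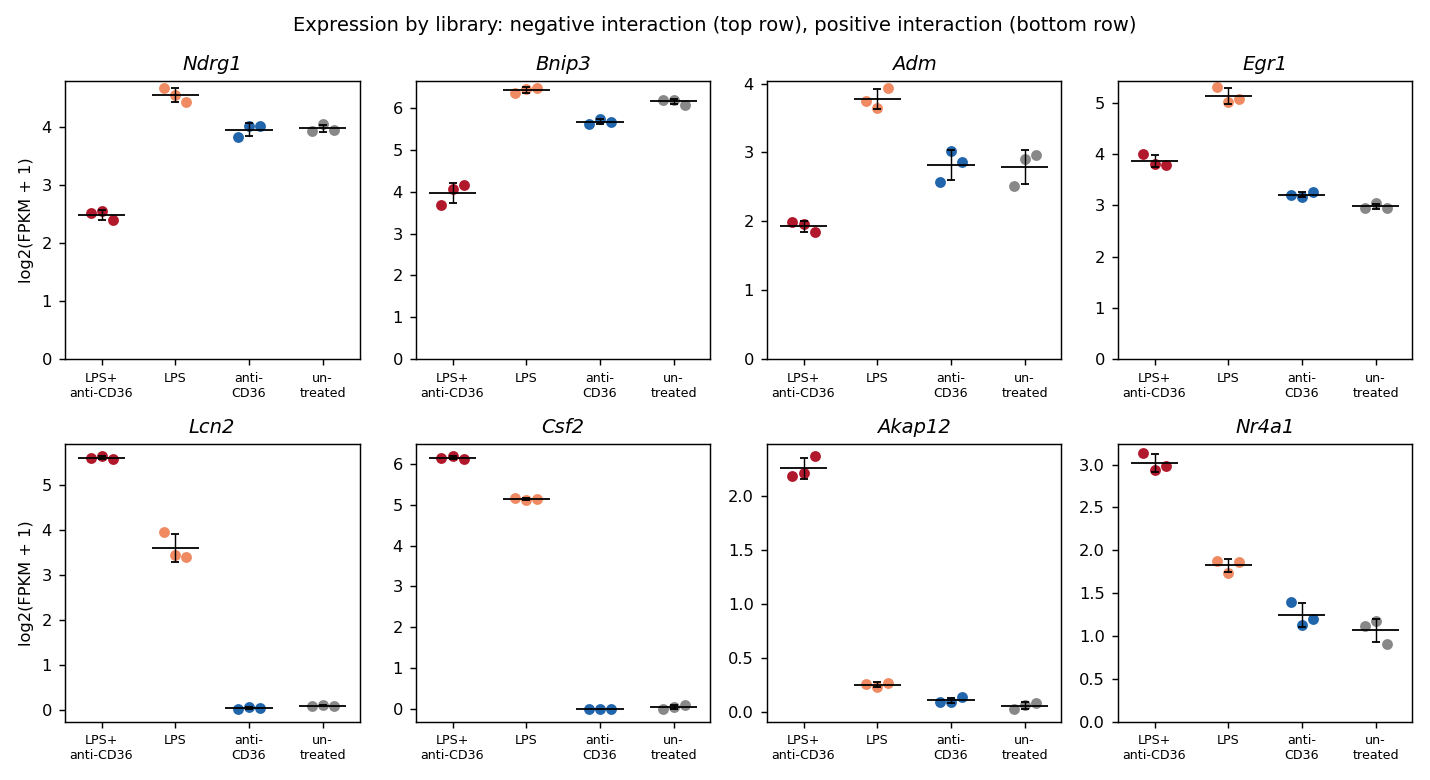
Expression in each library as log2(FPKM + 1) (vertical axis) of 4 genes with a negative interaction (upper panels) and 4 with a positive one (lower panels), by group. Points are libraries, wide bars are means and error bars are SD (n = 3). Ndrg1, Bnip3 and Adm are lowest with both agents, Egr1 is lower with both agents than with LPS alone, and Lcn2, Csf2 and Akap12 lie near 0 without LPS.

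Immediate early factors, the first genes transcribed after a stimulus, were split. Of 24 tested, 3 were called negative (Egr1, Jun and Egr3) and 1 positive (Nr4a1), beside 0.788% and 0.496% of all genes tested. Their median was -0.37, beside 0.01 over all genes tested. Egr1, a zinc finger activator induced through MAP kinase signalling, had 14.9, 13.0 and 12.8 FPKM in LPS+anti-CD36 cells, against 38.6, 31.2 and 32.9 FPKM in LPS cells, 8.18, 7.94 and 8.56 FPKM in anti-CD36 cells and 6.72, 7.24 and 6.76 FPKM in untreated cells. No 2 groups overlapped. The antibody change was -1.27 with LPS and 0.22 without it, and the interaction was -1.49 ± 0.13 (adjusted p = 0.000143). Jun, a subunit of the AP-1 factor, had 16.1, 15.7 and 13.7 FPKM with both agents, against 28.9, 22.5 and 21.5 FPKM with LPS, 9.36, 7.93 and 8.78 FPKM with the antibody and 6.29, 6.74 and 6.36 FPKM untreated, an interaction of -1.01. The groups of Jun did not overlap either, and LPS raised it by 0.74 with the antibody and by 1.75 without it. Egr3 was lowered by LPS both ways, with changes of -1.51 with the antibody and -0.80 without it. Its interaction was -0.71, and the call was lost in 9 of 12 fits that left out 1 library; it held only without LPS replicate 1, LPS replicate 2 or untreated replicate 2.

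Nr4a1, an orphan nuclear receptor that is quickly induced by many stimuli, went the other way. It had 7.76, 6.64 and 6.91 FPKM in LPS+anti-CD36 cells, against 2.65, 2.33 and 2.65 FPKM in LPS cells, 1.64, 1.18 and 1.30 FPKM in anti-CD36 cells and 1.17, 1.25 and 0.876 FPKM in untreated cells. Libraries with both agents were far above all others, and anti-CD36 and untreated libraries overlapped. Its interaction was 1.01 ± 0.14 (adjusted p = 0.00326), and it was among the 5 positive genes called from the recovered fragments, with Akap12, Cd247, Rab11fip1 and Sh2d5.

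Further genes induced by LPS were less induced in the presence of the antibody. Plk2, a kinase of the polo-like family, had 17.2, 17.8 and 21.7 FPKM in LPS+anti-CD36 cells, against 40.4, 47.3 and 52.2 FPKM in LPS cells, 1.27, 1.51 and 1.20 FPKM in anti-CD36 cells and 0.794, 0.822 and 0.900 FPKM in untreated cells, an interaction of -1.60 ± 0.15 (adjusted p = 0.000277). No 2 groups overlapped, and the antibody change was opposite in sign with LPS (-1.26, adjusted p = 2.8e-05) and without it (0.34, adjusted p = 0.165). Nos2, the inducible nitric oxide synthase, had 111, 110 and 110 FPKM with both agents, against 211, 182 and 170 FPKM with LPS, 3.49, 3.45 and 3.81 FPKM with the antibody and 3.20, 3.66 and 3.49 FPKM untreated. LPS raised it by 4.60 with the antibody and 5.40 without it, and the interaction was -0.80 ± 0.12 (adjusted p = 0.00572). Tifab, an inhibitor of TRAF signalling, averaged 1.90 ± 0.19 FPKM with both agents and 6.65 ± 0.88 with LPS, against 2.28 ± 0.31 with the antibody and 2.21 ± 0.13 untreated (SD, n = 3 each). LPS alone raised Tifab by 1.24, while its change with the antibody was -0.18 (adjusted p = 0.173), an interaction of -1.42. Atf3, a repressor induced by stress and by TLR signals, averaged 34.5 FPKM with both agents and 81.4 with LPS, against 4.74 with the antibody and 4.91 untreated, an interaction of -1.16.

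In another group, LPS without the antibody did not raise the genes, and the lowest values came from libraries with both agents. Ephx1, the microsomal epoxide hydrolase, had 2.03, 2.08 and 2.01 FPKM in LPS+anti-CD36 cells, against 6.68, 5.94 and 6.21 FPKM in LPS cells, 5.51, 5.90 and 6.60 FPKM in anti-CD36 cells and 5.38, 6.40 and 5.38 FPKM in untreated cells. The 3 other groups overlapped, and its interaction was -1.32 ± 0.12 (adjusted p = 0.000193). Arrb1, a beta-arrestin that turns off G protein-coupled receptors, averaged 3.51 ± 0.21 FPKM with both agents and 11.6 ± 0.66 with LPS, against 11.6 ± 0.65 with the antibody and 15.8 ± 1.2 untreated (SD, n = 3 each), an interaction of -1.07. Plau, the urokinase-type plasminogen activator, had 36.0, 39.9 and 36.9 FPKM with both agents, against 58.8, 60.9 and 61.8 FPKM with LPS, 78.6, 105 and 88.9 FPKM with the antibody and 65.6, 68.9 and 73.4 FPKM untreated. The antibody group of Plau was the highest and the group with both agents the lowest, without overlap, and the interaction was -1.05 ± 0.14 (adjusted p = 0.00281).

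The positive interactions were mostly those of genes at or near 0 without LPS. Genes that averaged under 1 FPKM in both the anti-CD36 and the untreated group made up 371 of the genes tested (3.61%), 38 of the 51 positive genes (74.5%) and 6 of the 81 negative genes (7.41%). In such genes the change without LPS is kept small by the 1 FPKM added before the logarithm, so the interaction follows mainly the antibody change in the presence of LPS. They could pass the filter mainly through libraries with LPS. Akap12, Il1f9, Fpr1, AA467197 and Ccl7 passed it only through libraries with both agents, where they were high. The filter thus admits genes near 0 through a group where they are high, whichever LPS group that is, and the shares above are partly set by it. With no filter on low values, 62 genes were positive and 73 negative, against 51 and 81 with it. Called genes near 0 without LPS then numbered 61, against 44.

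Of 19 tested inflammatory cytokines, 8 were called positive and 0 negative, beside 0.496% and 0.788% of all genes tested. Their median was 0.46, beside 0.01 over all genes tested, and 12 of the 19 were near 0 without LPS. With 0.1 FPKM added, 2 were called, with 4 FPKM added 9, and from the recovered fragments 0. The count was 5 without LPS replicate 2, anti-CD36 replicate 1 or anti-CD36 replicate 3. Csf2, the granulocyte-macrophage growth factor GM-CSF, had 69.8, 71.5 and 68.2 FPKM in LPS+anti-CD36 cells, against 34.9, 33.4 and 34.3 FPKM in LPS cells, 0 FPKM in all 3 anti-CD36 libraries and 0, 0.0416 and 0.0692 FPKM in untreated cells. Without LPS these values stand for 0 to 2 fragments per library. Libraries with both agents were 2.04-fold above those with LPS in mean FPKM, and the interaction was 1.06 ± 0.09 (adjusted p = 0.000143). Il1b, a precursor of the fever-inducing cytokine IL-1 beta, had 576, 575 and 638 FPKM with both agents, against 278, 311 and 329 FPKM with LPS, 0.110, 0.0870 and 0.172 FPKM with the antibody and 0.0678, 0.0484 and 0.0290 FPKM untreated. The value of untreated replicate 2 equals the mean of the other two untreated values. The interaction of Il1b was 0.86 at 1 FPKM added, 0.39 at 0.1 FPKM, where it was not called, and -0.22 from the recovered fragments (adjusted p = 1.00).

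The other called cytokines were Il1a (1.12), Il23a (0.97), Il27 (0.95), Csf3 (1.00), Il1f6 (1.19) and Il1f9 (0.81). Csf3, the granulocyte growth factor, averaged 918 FPKM with both agents and 457 with LPS, against 0.0281 with the antibody and 0.00436 untreated. When 1 library was left out, its call was lost in 10 of 12 fits, that of Il27 in 9 and that of Il23a in 3. Il1a, another fever-inducing interleukin, averaged 477 FPKM with both agents and 222 with LPS, against 0.00554 with the antibody and 0.00936 untreated. The IL-36 family members Il1f6 and Il1f9 were much lower, at 8.04 to 8.76 and 1.05 to 1.24 FPKM with both agents, against 2.41 to 4.06 and 0.154 to 0.263 FPKM with LPS. Lymphotoxin alpha (Lta), a relative of TNF, had 25.3, 24.4 and 24.2 FPKM with both agents, against 9.37, 8.79 and 8.58 FPKM with LPS, 0.171, 0.0480 and 0.285 FPKM with the antibody and 0.174, 0.0481 and 0.200 FPKM untreated. LPS+anti-CD36 and LPS libraries of Lta did not overlap with each other, the groups without LPS did, and its interaction was 1.34.

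Of 14 tested chemokines, 3 were called positive (Ccl7, Ccl17 and Ccl22) and 0 negative, beside 0.496% and 0.788% of all genes tested. Their median was 0.29, beside 0.01 over all genes tested, and with 0.1 FPKM added 0 were called. Ccl7 passed the filter only through libraries with both agents. Ccl22, which draws T cells through the receptor CCR4, had 204, 183 and 178 FPKM in LPS+anti-CD36 cells, against 103, 87.5 and 85.0 FPKM in LPS cells, 2.99, 3.17 and 3.47 FPKM in anti-CD36 cells and 2.41, 2.80 and 2.14 FPKM in untreated cells, an interaction of 0.74 (adjusted p = 0.0293). Its relative Ccl17 had 37.2, 28.8 and 24.2 FPKM with both agents, against 15.6, 11.3 and 9.07 FPKM with LPS, and at most 0.0647 FPKM without LPS, an interaction of 1.28 (adjusted p = 0.0255). Both pairs of LPS groups stood apart. When 1 library was left out, the call of Ccl17 was lost in 8 of 12 fits (it held without LPS+anti-CD36 replicate 3, LPS replicate 1, LPS replicate 3 and untreated replicate 3), that of Ccl22 in 10 (it held without LPS replicate 1 and untreated replicate 3) and that of Ccl7 in 3 (without LPS+anti-CD36 replicate 1 or 2, or anti-CD36 replicate 3). Cxcl2, which draws neutrophils, turned with the scale: its interaction was -0.34 with 0.1 FPKM added, 0.53 with 1 FPKM (adjusted p = 0.116) and 1.00 with 4 FPKM (adjusted p = 0.00115). It had 1138, 1036 and 934 FPKM with both agents, against 467, 402 and 405 FPKM with LPS, 1.35, 1.22 and 1.30 FPKM with the antibody and 0.25, 0.386 and 0.442 FPKM untreated. The antibody raised Cxcl2 with LPS and without it, by 1.28 and 0.75 (adjusted p = 9.5e-06 and 0.0129).

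**Figure D4:**
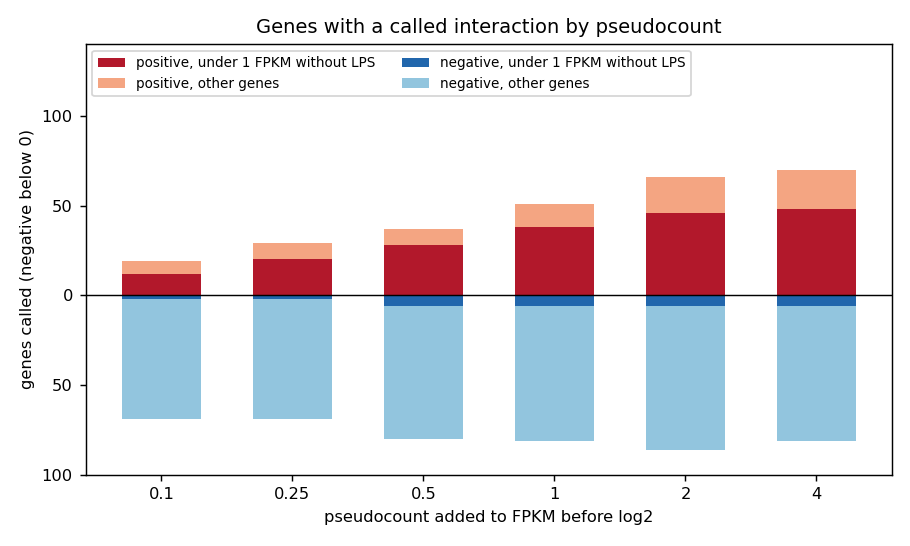
Number of genes called with a positive interaction (above 0) and a negative one (below 0) at each of 6 values added to the FPKM before the logarithm (horizontal axis). Dark parts of the bars are genes under 1 FPKM in both groups without LPS; positive genes run from 19 to 70 and negative genes from 69 to 86.

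Effectors of classical activation were called in both directions: of 19 tested, 5 were positive (Lcn2, Ass1, Fpr1, Fpr2 and Serpinb2) and 2 negative (Nos2 among them). Over all genes tested, 0.496% were positive and 0.788% negative. The median of the list was 0.38, beside 0.01 over all genes tested. Lcn2, a siderophore-binding protein that withholds iron from bacteria, had 48.0, 48.9 and 47.2 FPKM in LPS+anti-CD36 cells, against 14.6, 9.87 and 9.61 FPKM in LPS cells, 0.0201, 0.0506 and 0.0250 FPKM in anti-CD36 cells and 0.0704, 0.0761 and 0.0633 FPKM in untreated cells. The ratio of the means with LPS was 4.23, and the interaction was 2.06 ± 0.17 (adjusted p = 0.000143) and was called at all 6 values added. Fpr1 and Fpr2, receptors for formylated bacterial peptides, averaged 1.21 ± 0.16 and 4.14 ± 0.73 FPKM with both agents, against 0.170 ± 0.055 and 1.45 ± 0.13 with LPS (SD, n = 3 each). Fpr2 was at 0 in all 6 libraries without LPS, and Fpr1 in 5 of them. Ass1, the enzyme that recycles citrulline to arginine for nitric oxide synthesis, averaged 3.10 ± 0.26 FPKM with both agents and 1.26 ± 0.17 with LPS, an interaction of 0.94.

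Akap12, a scaffold that anchors protein kinase A, had the smallest p of all genes, but passed the filter only through libraries with both agents. It had 3.55, 3.63 and 4.14 FPKM in LPS+anti-CD36 cells, against 0.202, 0.174 and 0.211 FPKM in LPS cells, 0.0704, 0.0690 and 0.102 FPKM in anti-CD36 cells and 0.0220, 0.0494 and 0.0658 FPKM in untreated cells. These values stand for 880, 984 and 1356 fragments with both agents and 37 to 48 with LPS. The interaction was 1.95 ± 0.10 (adjusted p = 5.7e-06), and it ran from 3.39 with 0.1 FPKM added to 0.88 with 4 FPKM added, called throughout. Timp1, an inhibitor of matrix metalloproteases, had 99.4, 84.5 and 81.6 FPKM with both agents, against 24.2, 16.5 and 15.1 FPKM with LPS, 0.652, 0.897 and 1.33 FPKM with the antibody and 0.333, 0.3 and 0.156 FPKM untreated. No 2 of its groups overlapped. Its interaction was 1.59 (adjusted p = 0.00506), was 0.73 with 0.1 FPKM added, where it was not called, and 0.51 from the recovered fragments (adjusted p = 1.00).

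Of 15 tested extracellular proteases and inhibitors, 3 were positive (Timp1, Mmp13 and Serpinb2) and 1 negative (Plau), beside 0.496% and 0.788% of all genes tested. Their median was 0.04, beside 0.01 over all genes tested. Mmp13, a collagenase, and Serpinb2, an inhibitor of plasminogen activators, averaged 2.19 and 3.12 FPKM with both agents, against 0.966 and 1.66 FPKM with LPS, and lay at or under 0.0394 FPKM without LPS. Both calls were lost in 11 of 12 fits that left out 1 library, all but that without LPS replicate 3, and the interaction of Mmp13 was -0.17 from the recovered fragments. Among the genes of smallest p were also Gstt4, a theta-class glutathione transferase (1.13), the adaptor Sh2d5 (0.90) and AA467197 (1.72). The cystatin-like genes Cstdc4 (1.38) and Csta3 (1.82) were called too, but they belong to a cluster of closely similar genes, among which reads may be split.

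**Figure D5:**
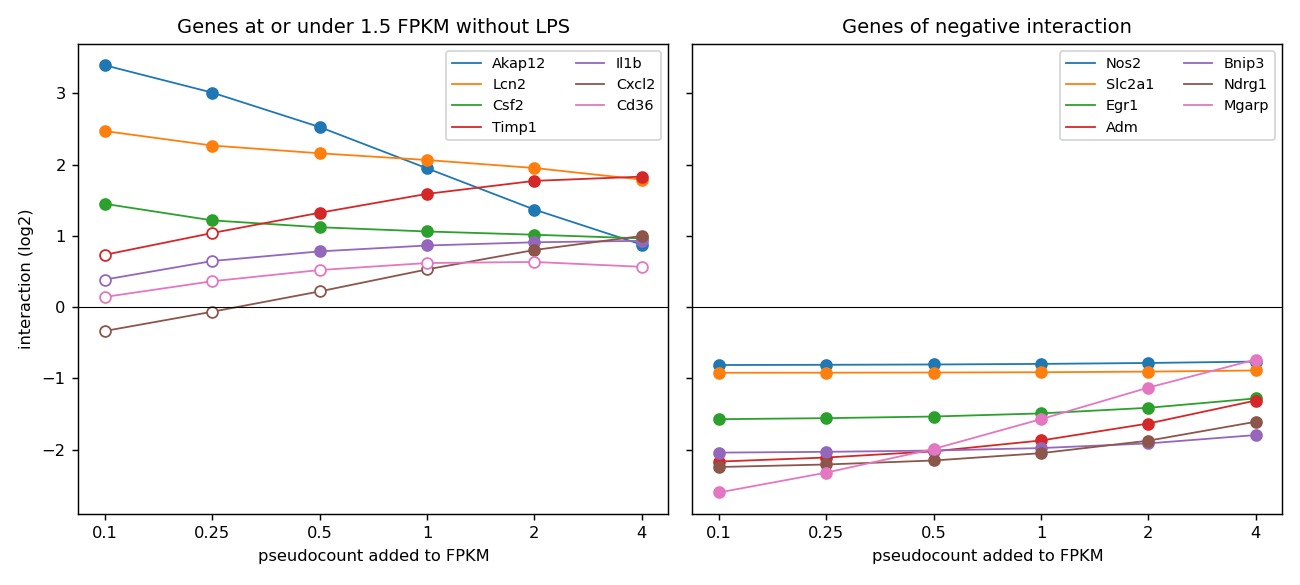
Interaction (vertical axis, log2) of 7 genes at low levels without LPS (left) and 7 genes with a negative interaction (right) at 6 values added to the FPKM (horizontal axis). Filled points are called (adjusted p under 0.05) and open ones are not: Akap12, Lcn2 and Csf2 are filled throughout, Cxcl2 goes from -0.34 to 1.00, and the genes on the right are filled throughout.

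The target of the antibody and the LPS receptor showed no called interaction. Cd36 had 10.4, 10.9 and 12.3 FPKM in LPS+anti-CD36 cells, against 4.40, 5.85 and 7.33 FPKM in LPS cells, 0.411, 0.471 and 0.256 FPKM in anti-CD36 cells and 0.123, 0.195 and 0.193 FPKM in untreated cells. No 2 groups overlapped. Its interaction was 0.62 with a 95% confidence interval of 0.20 to 1.04 (adjusted p = 0.239), and it was called in 4 of the 30 alternatives, among them the fit without LPS replicate 3 (0.77, adjusted p = 0.0489). With 0.1 FPKM added it was 0.14, and from the recovered fragments it was -0.23 (adjusted p = 1.00), neither of them called. The transcript was induced by LPS, by 3.15 with the antibody and 2.53 without it, and read at a low level in cells without LPS. For Tlr4 the interaction was -0.26 (interval -0.79 to 0.27) and for its co-receptor Cd14 it was 0.07 (-0.35 to 0.49). Tnf, which stood at 1186 to 1315 FPKM with both agents and 1067 to 1326 with LPS, against 64.2 to 72.5 with the antibody and 48.4 to 55.5 untreated, had an interaction of -0.26 (-0.57 to 0.05).

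Several lists held few called members or none, beside 0.496% positive and 0.788% negative among all genes tested. NF-kB subunits and feedback regulators had 1 positive gene, the inhibitor Nfkbie (0.74), and 1 negative, Atf3, of 24 tested, with a median of 0.00. NRF2 targets had 2 positive of 23: Gclm, a subunit of the enzyme that starts glutathione synthesis (0.43), and Srxn1, which restores oxidised peroxiredoxins (0.50), with a median of 0.08. The integrated stress response had 2 negative of 27, the pseudokinase Trib3 (-1.29) and the glutathione-degrading enzyme Chac1 (-0.88), with a median of -0.24. Fatty acid uptake and lipid droplets had 2 negative of 26, the triglyceride synthesis enzymes Gpat3 (-0.79) and Lpin1 (-0.66), with a median of -0.05. When 1 library was left out, the call was lost in 10 of 12 fits for Nfkbie, 11 for Gclm, 9 for Srxn1, 8 each for Trib3 and Chac1, 4 for Gpat3 and 3 for Lpin1.

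Among the lists with 0 called members were the 38 interferon-stimulated genes (median -0.12), 25 genes of the LPS receptor and its proximal signalling (0.00), 21 of Fc gamma receptors and their signalling (-0.02), 22 of the unfolded protein response (-0.01) and 16 macrophage identity genes (-0.10). The 40 DNA replication genes (0.09), 32 mitotic genes (0.11), 36 oxidative phosphorylation genes (0.08) and 32 ribosomal protein genes (0.14) likewise had 0 called members. Among all genes tested 0.496% were positive and 0.788% negative, so 0 calls in lists of this size do not set them apart from other genes.

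Genes of sterol and fatty acid synthesis that the antibody lowered both with and without LPS had no called interaction. The 26 tested genes of cholesterol synthesis, uptake and control had 0 called members and a median interaction of 0.05. The 15 of fatty acid synthesis and desaturation had 0 and -0.02, and the 12 of LXR receptors and cholesterol efflux 0 and -0.07. With 0.496% positive and 0.788% negative among all genes tested, 0 calls do not set lists of this size apart. Scd1, the stearoyl-CoA desaturase that makes oleate, averaged 10.1 ± 0.80 FPKM in LPS+anti-CD36 cells and 22.5 ± 0.98 in LPS cells, against 18.9 ± 1.6 in anti-CD36 cells and 44.8 ± 4.7 in untreated cells (SD, n = 3 each). The antibody change was -1.08 with LPS and -1.20 without it, and the interaction was 0.12 with a 95% interval of -0.18 to 0.42. Insig1, which holds back the activation of SREBP, averaged 15.6 ± 0.82 FPKM with both agents and 29.3 ± 2.0 with LPS, against 17.1 ± 2.6 with the antibody and 30.3 ± 1.6 untreated (SD, n = 3 each), an interaction of -0.06 (interval -0.39 to 0.26). For the lanosterol synthase gene Lss it was 0.02 (-0.22 to 0.25) and for Acly, which supplies cytosolic acetyl-CoA, 0.13 (-0.13 to 0.40). Scd2, another desaturase, had antibody changes of -1.55 with LPS and -0.92 without it, and its interaction of -0.63 (-0.99 to -0.27) was not called (adjusted p = 0.127).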

How the data were processed

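RNA of 12 libraries was sequenced, and 1 deposited table with 1 column per library was used. Its values are FPKM, computed by the authors and deposited as such. The submitters' processing notes name HISAT2 2.0.5 and list mm39 and hg38 as builds, with no role for either. How fragments were counted, and on which annotation, is not given in the sources used here. FPKM divides by gene length and library depth, so values near 0 rest on few fragments. At gene lengths of GENCODE M21, 92.1% of the 18167 entries above 0 fell on whole fragments in every library (tolerance 0.02 fragments), which gave the depth of each library. For repeated symbols only the entry with the greatest mean was used (82 entries dropped). Il6 was left out, and some genes are not reported here.

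The main test ran on log2(FPKM + 1): a linear model with 1 mean per group in limma 3.58.1 under R 4.3.3, whose prior variance followed an intensity trend, and the contrast (LPS+anti-CD36 minus anti-CD36) minus (LPS minus untreated), two-sided, with Benjamini-Hochberg adjustment over the 10276 genes and a call at an adjusted p under 0.05. Log2 values understate the changes of low genes. Tables and figures were made with Python 3.11.15, numpy 2.4.6, pandas 2.3.3 and matplotlib 3.10.9. Intervals, depths and standard errors cover only the spread between libraries or counting error.

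Genes were named by 5 rules: the 12 of smallest p in each direction with a group mean of at least 2 FPKM; Cd36, Tlr4, Cd14, Tnf, Il1b, Nos2 and Cxcl2; up to 4 called members of lists with at least 3; the 6 of smallest p among genes near 0 without LPS; and genes called in opposite directions at 2 of the values added, of which there were none. Predicted genes and pseudogenes were left out. Further list members, Pgm1, Gys1, Gbe1 and sterol genes were named after their values were seen. The comparison, the genes and the lists were chosen with earlier results of these data known. The 30 alternatives comprised other values added, filters, scalings and variance models, a fit to recovered fragments, removal of GC and length trends, a block on the replicate number and leaving out each library.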

Additional observations from a re-analysis of the deposited data

Results flagged for a closer look

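The effect of LPS differed between cells with and without the antibody, by a test of that difference itself, for 132 genes: 51 with a positive and 81 with a negative interaction. Of these, 15 are set out here because the change made by LPS was called in one direction with the antibody and in the other without it. The interaction (log2) was -2.05 for Ndrg1, -1.57 for Mgarp, -1.47 for Ciart, -1.20 for Bhlhe41, -1.87 for Adm, -1.09 for Pgm1, -0.91 for Egln3 and -1.66 for Ccng2. It was -0.75 for Zfp36l1, -1.22 for Grhpr, -0.85 for Pnrc1, -0.82 for Kdm4b, -0.78 for Jmjd6 and -0.73 for Echdc3. In these 14 genes LPS lowered the level with the antibody and raised it without. Tubb2a, with 0.67, was the one gene of the reverse kind. Its call was lost in 10 of the 12 fits that left out 1 library. That of Echdc3 was lost in 6, those of Kdm4b and Jmjd6 in 2 each and that of Pnrc1 in 1. Over all 10276 genes tested, 21 had LPS changes called in opposite directions.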

How the results depend on the processing

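All 30 alternatives were run. Against 132 genes (51 positive, 81 negative, 44 of them near 0 without LPS), a filter of 5 FPKM in at least 3 libraries gave 85 genes, 25 of them positive and 18 near 0. Adding 0.1 FPKM gave 19 positive and 14 near-0 genes and adding 0.25 FPKM gave 29 and 22. TPM scaling gave 27 positive and 26 near-0 genes, and the fit to recovered fragments 72 genes, 5 positive and 6 near 0, of which 68 genes were shared with the main result. Of the named genes that were called, 2 changed sign in that fit: Il1b was at -0.22 and Mmp13 at -0.17, against positive values in the main result. Removing GC and length trends gave 403 genes, 127 positive and 276 negative. Array quality weights gave 2960 genes, 1486 positive, 1474 negative and 187 near 0; those weights ran from 0.148 to 7.23, and 1 library per group carried most of the weight. The cause of these differences was not tested.

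The labels do not say what a replicate number stands for. Between libraries of the same number, the correlation of the deviations from the group means ran from 0.446 to 0.784 for replicate 1, from -0.317 to 0.433 for replicate 2 and from -0.0653 to 0.811 for replicate 3. Not every library correlated best with its own number: untreated replicate 2 did so with LPS replicate 1 (0.419) and anti-CD36 replicate 2 with untreated replicate 3 (0.69). With pairs of replicates 2 and 3 below 0, the libraries were not treated as paired, and shared handling was not tested. A block on that number gave 212 genes, 141 of them negative, and with GC and length trends removed as well it gave 542 genes, 170 positive and 372 negative.

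Leaving out 1 library gave 77 to 161 genes, 28 to 65 positive and 47 to 96 negative, and the list of hypoxia genes held 13 to 17 called members. Of the 42 called genes picked by rule, 33 were called in all 12 of these fits and 19 under every alternative in which they were tested. Every group has 3 libraries, which limits the precision of each value, and genes near 0 without LPS rest there on a few fragments.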
